A study of Homo sapiens with 4 samples.

Results

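The p53 pathway was followed through 43 genes that encode relatives of p53, its regulators, and products of its target genes. The genes were listed by their known place in the pathway, with earlier results of these data known, and they make up 43 of the 18449 gene symbols in the count table. All 43 had counts and were tested, beside 18066 genes in all. The genes for cell death and for inhibitors of cyclin-dependent kinases were not members and are given only as a list near the end.

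The RNA came from BT-16 and CHLA-266, established lines of the MYC subgroup of atypical teratoid/rhabdoid tumor (AT/RT-MYC), and was sequenced without treatment and after 1 µM doxorubicin, 5 µM etoposide, and 1 µM vincristine on 3 consecutive days. Doxorubicin and etoposide trap topoisomerase II on DNA and leave double-strand breaks, and vincristine blocks the mitotic spindle. Per the study's methods, the agents followed each other a day apart, most cells died, and the treated cells were harvested after survivors had grown again. The sample labels give 3 days of treatment and no time of harvest. Genes of cell division were lower in the treated libraries, as given near the end, and whether these cells were dividing at harvest was not tested. There was 1 library per cell line and condition, so 2 libraries stood on each side of the comparison and the cell lines served as its replicates.

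p53 is a transcription factor that is held low by MDM2 and MDM4 and is stabilized after DNA damage. It then binds paired half-sites in its target genes, which stop the cell cycle, repair DNA, change metabolism, or start apoptosis, and MDM2 is itself a target, which closes a feedback loop. AT/RT is defined by loss of SMARCB1 or SMARCA4 and carries few other mutations, and p73 and p63 are relatives of p53 that can bind similar sites.

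Library totals ran from 49849257 counts in treated CHLA-266 cells to 75087193 in untreated BT-16 cells. Levels are given as CPM, that is counts scaled to one common library size, after TMM normalization, which scales libraries so that most genes do not differ. Among the 43 genes, 41 had at least 10 counts in every library, and the exceptions were TP63 and GADD45G. MYC ran from 118 to 207 CPM in the 4 libraries, but the 6 HOXC genes on the list of AT/RT-MYC markers were between 0 and 5.15 CPM (1 of the 8 markers was higher after treatment and 1 lower), and SMARCB1, which AT/RT usually loses as a protein, was still counted at 15.9 to 21.3 CPM. More genes were detected in treated cells (17815 in BT-16, 17114 in CHLA-266) than in untreated cells (16079 and 15464). Genes that neither line should use moved the same way. In BT-16, 12 tissue-restricted genes such as MYH7 summed to 1.07 CPM before and 10.7 CPM after treatment. In CHLA-266 they summed to 0.812 and 7.83 CPM. In the test given below, 5 of the 12 passed as higher, beside 16.1% of all genes. In bulk RNA, fewer cells of a kind cannot be told apart from less RNA per cell.

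Binding sites for p53 were searched first, because they are what joins these genes into one pathway. The start of a gene was that of its canonical transcript in GENCODE 44, and 2500 bases on either side were searched. A full site was taken as a pair of half-sites of 10 letters each, at most 1 base apart. The C and G of each core had to be intact, with at most 1 other mismatch in the pair. Such a match stood at 4 of the 43 genes (9.3%) and at 204 of 17965 genes with a start (1.14%). The genes were listed as p53 targets, so the higher share describes the list. The matches are printed because they show the letters at which p53 could bind in 3 genes that passed the test of treatment and 1 that did not. Capitals mark the half-sites, and 4 flanking bases on each side are in lower case (hg38, 5′ to 3′ on the strand given).
DDB2, chr11:47214969-47214988, plus strand, untranslated exon: ctccAAGCTGGTTTGAACAAGCCCtggg
DDB2, chr11:47214979-47214999, plus strand, untranslated exon: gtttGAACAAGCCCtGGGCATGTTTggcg
GADD45A, chr1:67686775-67686794, plus strand, intron: tacaGAACATGTCTAAGCATGCTGggga
PLK2, chr5:58462274-58462293, minus strand, upstream: tgagAAACATGCCTGGACTTGCCCtgca
ZMAT3, chr3:179070188-179070207, minus strand, intron: cataAAACAAGTCCAGACATGCCTaggc

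The matches in PLK2 and ZMAT3 and the second match in DDB2 had no mismatch, which 18 of all 17965 genes with a start (0.1%) reached. The matches in DDB2 overlap by 1 half-site and are centred 4 and 15 bases after the start, in an untranslated exon. This start of the canonical transcript lies inside the coordinates given below for the whole gene. In GADD45A the match is centred 1583 bases after the start and in ZMAT3 1612 bases after it, while in PLK2 it is centred upstream, at position -2197 from the start. As given below, GADD45A and PLK2 rose, DDB2 fell, and ZMAT3 did not pass, so genes with a match moved in both directions. A match is a run of letters, and no binding of p53 was measured here. Members without a match can carry a site farther away or one with more mismatches.

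After treatment, 9 of the 43 genes were higher and 9 were lower at an adjusted p value under 0.05 (edgeR's quasi-likelihood test, Benjamini-Hochberg adjustment over 18066 genes). Over all genes tested, 16.1% were higher and 19.1% were lower, so the shares of the p53 genes (9 of 43 each way) were close to the background. The higher genes were GADD45G, PLK2, ABHD4, GADD45A, TNFRSF10D, MDM2, PERP, TP53INP1, and SUSD6, in order of their log2 fold change. The lower genes were TP73, DDB2, AEN, PIDD1, POLH, FDXR, TRIAP1, MDM4, and FBXO22. The other 25 passed in neither direction. The median log2 fold change was 0.05 over the 43 genes and 0.24 over all genes tested, with 22 positive and 21 negative values among the 43. This order depended on whether genes with few counts were in the fit. A new fit, with its own scaling, to genes with at least 10 counts in each library gave medians of 0.18 and 0.01. The first is over the p53 genes and the second over all genes of that fit. The new scaling also moved single genes, as the log2 fold change of MDM2 went from 1.12 to 1.30. The p53 genes thus had no direction in common, although PLK2 rose 31.3-fold and TP73 fell to a level 9.78-fold lower.

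When the model held the cell line as a block, 9 genes were higher and 10 lower, where 17.9% and 23.7% of all genes were called. The 2 fits shared 17 calls, TP63 and CDIP1 were called only with the block, and GADD45G was called only without it. The split leaned on the scaling, since upper-quartile normalization gave 16 higher and 4 lower and library totals gave 10 and 6. All genes shifted as well, as their median log2 fold change went from 0.24 to 0.59 with upper-quartile normalization and to 0.46 with library totals. The shares of all genes called under these scalings are not given here. Without the untreated CHLA-266 library, the count of higher genes fell from 9 to 5.

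**Figure D1:**
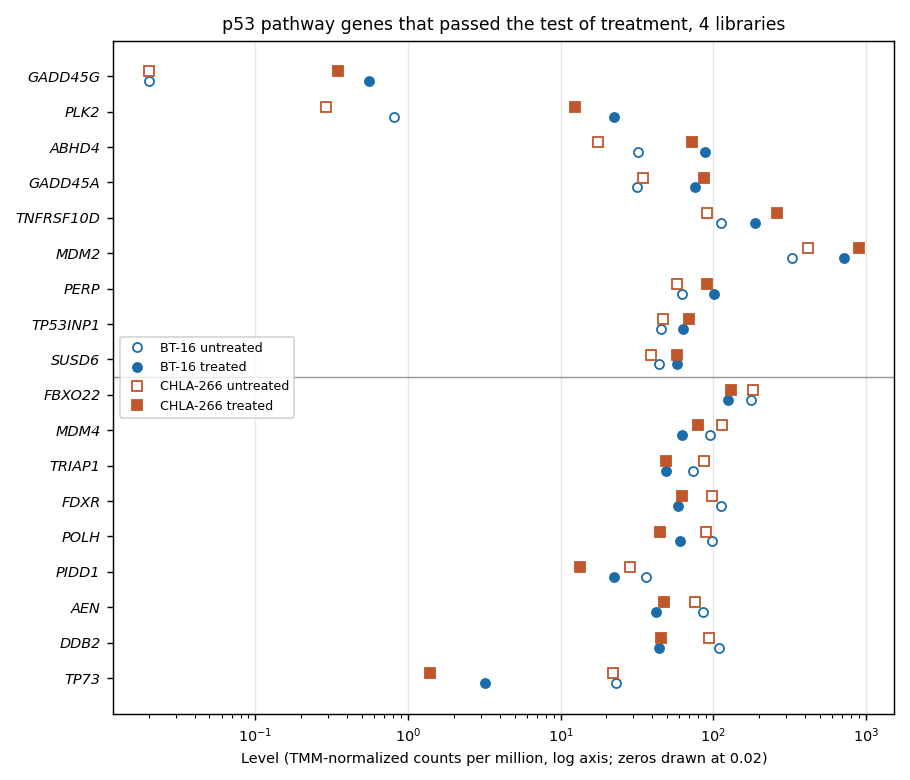
Level of the 18 genes that passed the test, in CPM on a log axis, for each of the 4 libraries (circles BT-16, squares CHLA-266, open untreated, filled treated). Above the line both treated libraries lie to the right of both untreated ones for all 9 genes, and below it they lie to the left, and PLK2 and TP73 are the farthest apart of the genes with 10 or more counts in each library.

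Among the p53 relatives, TP73 fell and TP63 was near the limit of detection. TP73 (chr1:3652516-3736201) encodes p73, which shares the DNA-binding domain of p53 and is also known as a target of E2F factors in dividing cells. It was counted 1594 times before and 186 times after treatment in BT-16 and 1358 and 72 times in CHLA-266. Its level thus went from 23.1 to 3.22 CPM and from 22.1 to 1.39 CPM, without overlap between conditions. On the log2 scale the change was -3.29 ± 0.40 (SE, n = 2 libraries per condition, adjusted p = 0.000574 by edgeR's quasi-likelihood test), a level 9.78-fold lower after treatment, and TP73 passed under all 10 alternatives and without any 1 library.

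TP63 encodes p63, which is best known from the basal cells of stratified epithelia. BT-16 cells had 13 counts before and 104 after treatment, and CHLA-266 cells had 0 and 49, which is at least 19.3-fold higher against a floor of 3 counts. TP63 did not pass without the block (adjusted p = 0.0554 by edgeR) and did so with it (adjusted p = 0.00945, and from 0.00285 to 0.0601 over 9 alternatives). It also passed without the untreated BT-16 library (adjusted p = 0.0069 by edgeR) and without the treated CHLA-266 library (0.0173). The counts of TP63 are 6.55 and 13.9 counts per kilobase of exon in treated CHLA-266 and BT-16 cells, where the 95th percentile of 380 olfactory receptor genes, which neither line should use, was 21.2 and 26.3 counts per kilobase in CHLA-266 and BT-16. The part of that background in the counts of TP63 was not tested.

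The stretch before the start of TP73 is printed because E2F factors are known to act on it and TP73 fell the most of all 43 genes. It holds 250 bases upstream of the start (chr1:3652266-3652515, hg38, plus strand, outside the exons of TP73 and inside an intron of WRAP73 on the other strand), and capitals mark the E2F motifs, spelled TTCCCGC or, on the other strand, GCGGGAA.
TP73 upstream: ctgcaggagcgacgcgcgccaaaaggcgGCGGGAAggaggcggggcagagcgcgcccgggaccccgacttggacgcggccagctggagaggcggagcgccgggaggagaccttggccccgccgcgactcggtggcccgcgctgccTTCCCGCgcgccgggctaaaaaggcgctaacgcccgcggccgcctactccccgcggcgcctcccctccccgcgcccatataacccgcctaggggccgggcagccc

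There were 2 such motifs in TP73, in a stretch with 77.2% G and C. At least 1 was found upstream of 8 of the 43 genes (18.6%) and of 1356 of 17965 genes (7.55%). It stood upstream of 3 of the 9 genes that rose and of 3 of the 9 that fell, so the motif did not go with a direction. A half-site for p53 was found in the same 250 bases of 5 of the 43 genes (11.6%) and 4.69% of all genes. The E2F motif was chosen after the values of TP73 were seen.

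Of the 3 negative regulators of p53, MDM2 rose, MDM4 fell, and PPM1D passed in neither direction. MDM2 (chr12:68808177-68845544), the ubiquitin ligase that marks p53 for degradation, had the most RNA per kilobase of all 43 genes in treated cells, with 87.3 (BT-16) and 109 CPM per kilobase (CHLA-266). Its level was 331 CPM before and 725 CPM after treatment in BT-16 and 417 and 903 CPM in CHLA-266. edgeR gave a log2 fold change of 1.12 ± 0.20 (SE, n = 2 per condition, adjusted p = 0.00334), a 2.18-fold rise that differed little between the lines (log2 ratios of 1.13 and 1.12).

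MDM4, which covers the activation domain of p53 and pairs with MDM2, went the other way. It was at 95.4 CPM before and 62.4 CPM after treatment in BT-16 and at 114 and 79.9 CPM in CHLA-266. The log2 fold change was -0.56 ± 0.18 (edgeR adjusted p = 0.0435), and it passed in 4 of 10 alternatives, with adjusted p values up to 0.345. The call was lost without either untreated library (adjusted p = 0.0524 without BT-16 and 0.209 without CHLA-266) and without the treated BT-16 library (0.193). PPM1D, the phosphatase WIP1 that removes damage-induced phosphates from p53 and its kinases, was at 119 and 87.5 CPM in BT-16 and at 127 and 120 CPM in CHLA-266, so its conditions overlapped.

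Of the 8 targets for cell cycle arrest and stress, 3 rose, none fell, and 5 passed in neither direction. The shares over all genes were 16.1% higher and 19.1% lower. With the cell line as a block, 2 of the 8 were higher, since GADD45G lost its call. PLK2 (chr5:58453982-58460139), a polo-like kinase of centrioles and the damage response, showed the largest change of the 41 genes that had 10 or more counts in each library. It was counted 56 times before and 1302 times after treatment in BT-16 and 18 and 642 times in CHLA-266. These counts correspond to 0.812 and 22.5 CPM and to 0.292 and 12.4 CPM. The gene was thus close to silent before treatment in both lines and moderately expressed after it. On the log2 scale the change was 4.97 ± 0.55 (edgeR adjusted p = 0.000352), or 31.3-fold, and PLK2 passed under all 10 alternatives and without any 1 library. Its relative PLK3 was at 44.7 and 56.2 CPM in BT-16 and at 42.2 and 48.3 CPM in CHLA-266, higher in both treated libraries, but did not pass (edgeR adjusted p = 0.237).

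The 3 GADD45 genes, which encode small stress proteins that bind the clamp PCNA and the cyclin B1 kinase complex, did not move together. GADD45A (chr1:67685201-67688334), the member best known as a p53 target, rose from 31.9 to 76.4 CPM in BT-16 and from 34.9 to 87.4 CPM in CHLA-266. edgeR gave a log2 fold change of 1.29 ± 0.17 (adjusted p = 0.00074), with log2 ratios of 1.26 in BT-16 and 1.32 in CHLA-266. GADD45B was at 9.81 and 21 CPM in BT-16 and at 16.5 and 14.5 CPM in CHLA-266 and did not pass (edgeR adjusted p = 0.292). GADD45G had 0 counts in both untreated libraries and 32 and 18 counts in treated BT-16 and CHLA-266 cells. Against a floor of 3 counts per untreated library, GADD45G was at least 12.7-fold higher in BT-16 and at least 7.11-fold higher in CHLA-266. It passed without the block (edgeR adjusted p = 0.0363), but not with it (adjusted p = 0.0684, and from 0.00631 to 0.0684 over 9 alternatives), nor without any 1 of the 4 libraries (0.0637 to 0.118). The treated libraries held 24.2 and 13.6 counts per kilobase of GADD45G, below the 95th percentile of the olfactory receptor genes given above.

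The remaining arrest and stress targets passed in neither direction. BTG2, an antiproliferative gene that is induced early by p53, was at 76.4 CPM before and 74.2 CPM after treatment in BT-16 and at 64.9 and 66.0 CPM in CHLA-266. SERTAD1, which binds CDK4, was at 15.8, 12.2, 13.4, and 13.8 CPM in the same order of libraries. ZMAT3, an RNA-binding zinc finger protein and p53 target with an exact site in its intron (printed above), was at 119 and 135 CPM in BT-16 and at 112 and 144 CPM in CHLA-266. Both treated libraries were above both untreated ones for ZMAT3, but it did not pass (edgeR adjusted p = 0.192). ZMAT3 passed in 3 of 10 alternatives, with adjusted p values from 0.0124 to 0.17.

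**Figure D2:**
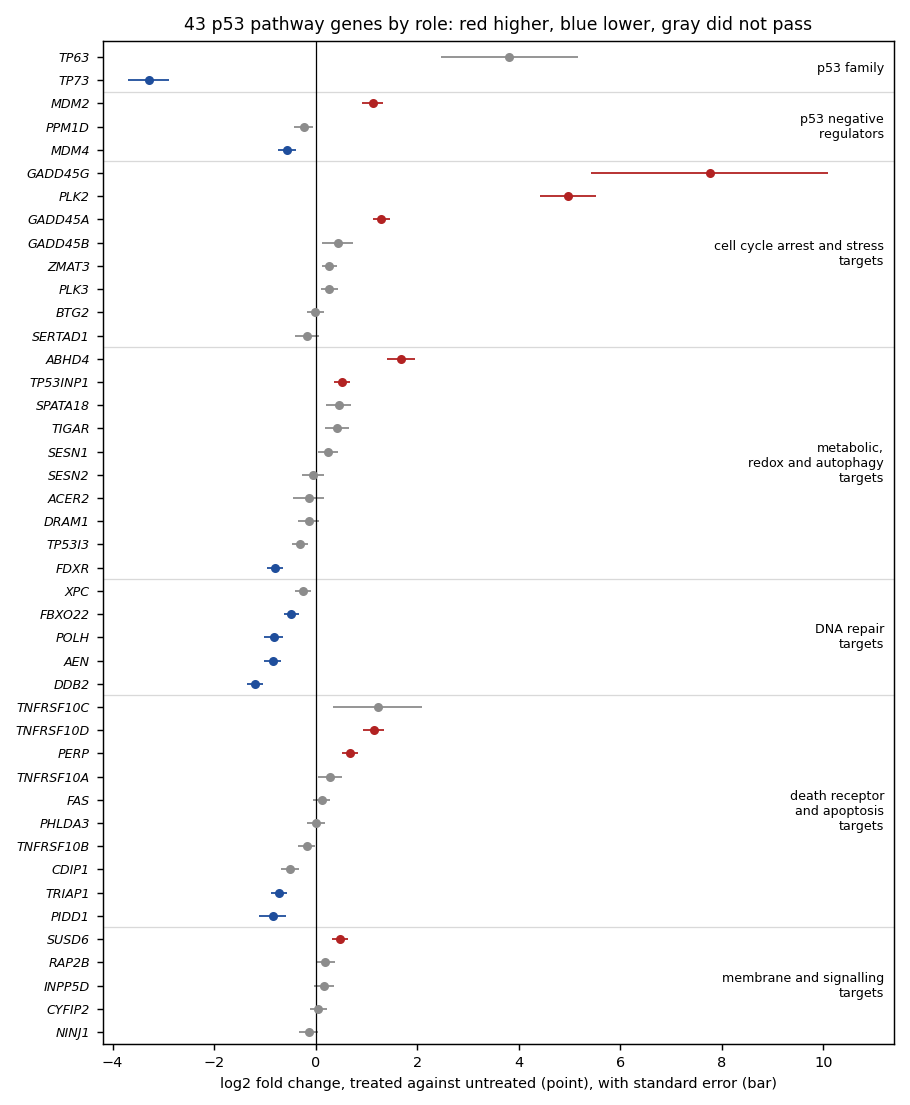
log2 fold change of treated against untreated cells with its standard error for all 43 genes, grouped by role (2 libraries per condition). Red points passed as higher, blue points as lower, and gray points did not pass, and GADD45G, PLK2, and TP73 stand far from 0 while 4 of the 5 genes listed under DNA repair (DDB2, POLH, AEN, and FBXO22) are blue.

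Of 10 genes of metabolism, redox balance, and autophagy, 2 rose, 1 fell, and 7 passed in neither direction. The shares over all genes were 16.1% higher and 19.1% lower. ABHD4 (chr14:22598290-22612963), a lipase that makes precursors of N-acylethanolamines and is linked to anoikis, rose from 32.4 to 88.1 CPM in BT-16 and from 17.7 to 72.9 CPM in CHLA-266. The log2 fold change was 1.68 ± 0.27 (edgeR adjusted p = 0.00245), with every alternative and every left-out library keeping the call. TP53INP1, which promotes autophagy and p53 activity, rose from 45.7 to 63.4 CPM and from 47.3 to 70.0 CPM. Its log2 fold change of 0.52 ± 0.16 was smaller (edgeR adjusted p = 0.0327), and the call was lost without either untreated library (adjusted p = 0.128 without BT-16 and 0.109 without CHLA-266) and without the treated CHLA-266 library (0.103).

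FDXR, the mitochondrial reductase that feeds electrons to steroid hydroxylases and iron-sulfur cluster assembly, fell. It was at 112 CPM before and 58.9 CPM after treatment in BT-16 and at 98.5 and 62.6 CPM in CHLA-266 (log2 fold change -0.80 ± 0.16, edgeR adjusted p = 0.00635). The sestrins, which restrain mTORC1 and respond to stress, were uneven. SESN1 was at 22.1 and 30.2 CPM in BT-16 and at 25.3 and 26.0 CPM in CHLA-266, while SESN2 was at 61.8 and 46.2 CPM in BT-16 and at 39.3 and 51.5 CPM in CHLA-266. Neither passed, and the conditions overlapped for SESN2.

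TIGAR, a bisphosphatase that slows glycolysis, was at 12.8 and 18.2 CPM in BT-16 and at 16.5 and 21 CPM in CHLA-266. SPATA18, which is needed for removal of damaged mitochondria, had similar values of 12.2 and 18.4 CPM and of 16.6 and 20.9 CPM. Both were higher in each treated library than in either untreated one and did not pass (edgeR adjusted p = 0.191 and 0.177). TP53I3, a quinone oxidoreductase that is among the classic p53 targets of apoptosis, lay the other way, at 108 and 86.6 CPM and at 97.0 and 78.8 CPM (adjusted p = 0.153). The lysosomal autophagy gene DRAM1 ran from 77.8 to 111 CPM and the alkaline ceramidase gene ACER2 from 6.52 to 9.62 CPM over the 4 libraries, with overlapping conditions.

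Of the 5 genes listed under DNA repair, 4 fell and none rose, where 19.1% of all genes fell. Among the 4, DDB2 and POLH act in repair, while AEN is a nuclease of apoptosis and FBXO22 a subunit of a ubiquitin ligase. DDB2 (chr11:47214465-47239217), which finds ultraviolet lesions for nucleotide excision repair, went from 110 to 44.1 CPM in BT-16 and from 94.4 to 45.4 CPM in CHLA-266. On the log2 scale the change was -1.19 ± 0.16 (edgeR adjusted p = 0.00101), a level 2.28-fold lower. DDB2 is the gene with the overlapping p53 matches in an untranslated exon, as printed above. POLH, the translesion polymerase that copies past ultraviolet dimers, went from 98.1 to 60.8 CPM and from 90.1 to 44.9 CPM, with a log2 fold change of -0.83 ± 0.19 (edgeR adjusted p = 0.0101).

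AEN, an exonuclease that degrades DNA in apoptosis and is a p53 target, went from 85.4 to 42.0 CPM in BT-16 and from 76.4 to 47.5 CPM in CHLA-266. edgeR gave a log2 fold change of -0.85 ± 0.16 (adjusted p = 0.00511). FBXO22, an F-box protein that targets p53 and the demethylase KDM4A, went from 178 to 126 CPM and from 182 to 132 CPM. The log2 fold change of FBXO22 was -0.48 ± 0.15 (edgeR adjusted p = 0.0402). FBXO22 is the least certain of the 4, since it passed in 6 of 10 alternatives and in none of the 4 fits without 1 library (adjusted p = 0.082 to 0.147), and 16.2% of its exon bases lie opposite NRG4. XPC, the damage sensor that works with DDB2, was at 129 and 118 CPM in BT-16 and at 130 and 100 CPM in CHLA-266 and did not pass (edgeR adjusted p = 0.256). Within XPC, 24.6% of the exon bases lie opposite an antisense gene, and the use of strand in counting is not given in the sources used here. With upper-quartile normalization POLH (adjusted p = 0.076) and FBXO22 (0.496) lost the call, and DDB2 and AEN kept it.

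The 10 genes of death receptors and apoptosis split evenly, with 2 that rose, 2 that fell, and 6 that passed in neither direction. Over all genes, 16.1% were higher and 19.1% lower. The receptors of the ligand TRAIL are encoded side by side on chromosome 8. TNFRSF10D, a decoy receptor whose short death domain does not signal, rose from 113 to 189 CPM in BT-16 and from 91.5 to 264 CPM in CHLA-266. Its log2 fold change was 1.14 ± 0.21 (edgeR adjusted p = 0.0041). The receptors that do signal did not pass. TNFRSF10A was at 66.6 and 69.0 CPM in BT-16 and at 80.9 and 110 CPM in CHLA-266, and TNFRSF10B was at 173 and 143 CPM and at 169 and 159 CPM. The other decoy gene, TNFRSF10C, was counted 28 and 44 times in BT-16 and 20 and 49 times in CHLA-266 cells. On the log2 scale the change was 1.22 ± 0.87 (edgeR adjusted p = 0.29), and at 28.5 and 31.7 counts per kilobase after treatment in BT-16 and CHLA-266 it was above the same percentile of the olfactory receptor genes (26.3 and 21.2). Reads of these related genes could be shared between them, and the handling of such reads is not given in the sources used here.

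FAS, the receptor of the Fas ligand, passed in neither direction at 40.5 and 48.5 CPM in BT-16 and 49.2 and 48.7 CPM in CHLA-266. PERP, a desmosomal membrane protein that takes part in p53-dependent apoptosis, rose from 62.3 to 102 CPM and from 57.8 to 90.6 CPM. edgeR gave a log2 fold change of 0.68 ± 0.16 (adjusted p = 0.012), and the call was lost only without the untreated CHLA-266 library (0.0716). The gene of the AKT inhibitor PHLDA3 stayed between 29.4 and 33.6 CPM in the 4 libraries. Another gene on the same strand shares 18.4% of the exon bases of PHLDA3 and, among the metabolic genes above, 18.1% of those of TIGAR. The effect of this overlap on their counts was not tested.

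PIDD1, the scaffold of the caspase-2 complex, fell from 36.4 to 22.5 CPM in BT-16 and from 28.5 to 13.4 CPM in CHLA-266. Its log2 fold change was -0.85 ± 0.27 (edgeR adjusted p = 0.0394), which held in 4 of 10 alternatives and was lost without untreated BT-16 (adjusted p = 0.167) or treated CHLA-266 cells (0.109). TRIAP1, a mitochondrial protein that restrains apoptosis, fell from 74.2 to 49.2 CPM and from 87.2 to 48.8 CPM (log2 fold change -0.72 ± 0.16, edgeR adjusted p = 0.0101). The call of TRIAP1 was lost without the untreated CHLA-266 library (0.0712) and with upper-quartile normalization (0.1). CDIP1, which links p53 to tumor necrosis factor signals, was at 57.1 and 42.3 CPM in BT-16 and at 51.9 and 34.5 CPM in CHLA-266. Its log2 fold change of -0.51 ± 0.18 passed with the block (edgeR adjusted p = 0.0117) and not without it (0.0533, and from 0.0117 to 0.506 over 10 alternatives), and it passed without the treated BT-16 library (0.0197).

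Among 5 membrane and signalling genes, SUSD6 rose and 4 passed in neither direction, beside 16.1% higher and 19.1% lower over all genes. SUSD6, a membrane protein also known as DRAGO, went from 44.3 to 58.3 CPM in BT-16 and from 39.1 to 57.7 CPM in CHLA-266. On the log2 scale the change was 0.48 ± 0.16 (edgeR adjusted p = 0.0497), next to the threshold, and it passed in none of the 4 fits without 1 library (adjusted p = 0.0788 to 0.235). The actin regulator gene CYFIP2 ran from 143 to 174 CPM, the lipid phosphatase gene INPP5D from 40.4 to 57.3 CPM, the small GTPase gene RAP2B from 43 to 59.1 CPM, and the membrane rupture gene NINJ1 from 52.2 to 67.7 CPM over the 4 libraries. The conditions overlapped for each of these 4 genes.

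Across all 43 genes, both treated libraries were above both untreated ones for 16 genes and below them for 13. Over all genes tested these shares were 40.2% and 32.3%, genes with few counts included. The p53 genes thus separated about as often as genes in general. A design of 2 against 2 libraries allows no 2-sided exact permutation p value under 0.333, and the tests above rest on a spread estimated across all genes.

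The change was next compared between the 2 cell lines. Within a line there is 1 library per condition and thus no replicate, so log2 ratios (treated over untreated counts) are given with exact 95% intervals, which hold only the error of counting and are too narrow if read pairs were counted as 2 reads. In BT-16, 7 of the 43 genes were at least 2-fold higher (TP63, MDM2, GADD45A, GADD45B, GADD45G, PLK2, and ABHD4) and 3 at least 2-fold lower (TP73, DDB2, and AEN). Over all genes 35.3% were at least 2-fold higher and 12.1% lower in BT-16. In CHLA-266, 8 were at least 2-fold higher (TP63, MDM2, GADD45A, GADD45G, PLK2, ABHD4, TNFRSF10C, and TNFRSF10D) and 4 at least 2-fold lower (TP73, DDB2, POLH, and PIDD1), against 31.8% and 13.3% of all genes. Over the 43 genes the log2 ratio had a median of -0.04 in BT-16 (0.19 over all genes) and of 0.05 in CHLA-266 (0.24 over all genes). The shares and medians over all genes include many genes with few counts. Of the 18066 genes, 12620 had at least 10 counts in every library, and of the 43 genes 41 did. The 2 sets are therefore not matched for level.

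**Figure D3:**
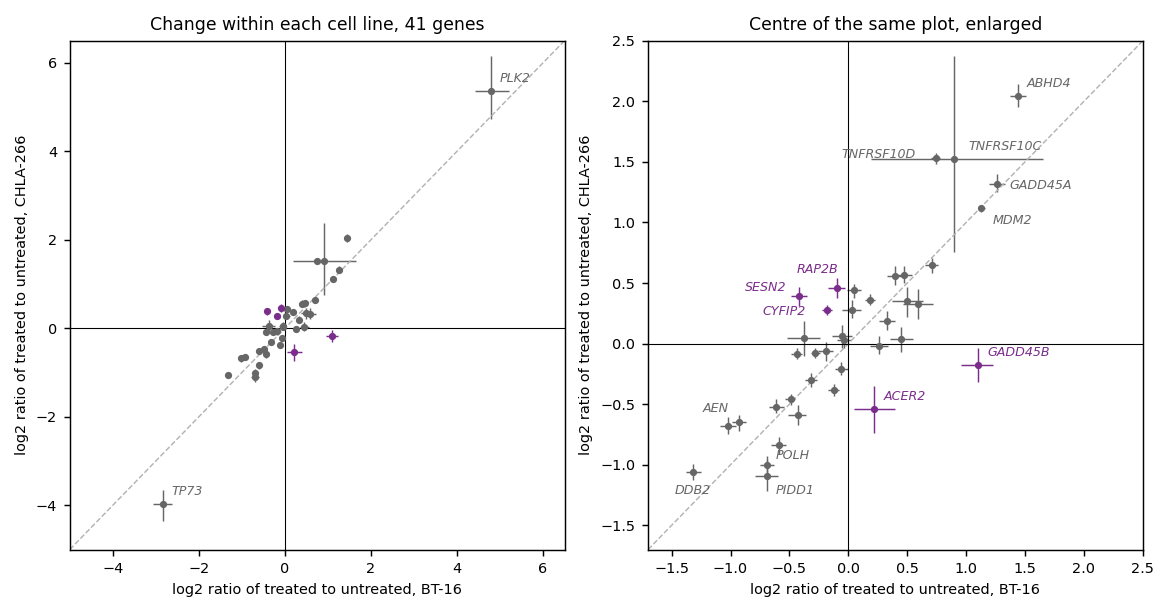
log2 ratio of treated to untreated cells in BT-16 (x axis) and CHLA-266 (y axis) for the 41 genes that had 10 or more counts in each library, with the centre enlarged on the right. Bars are exact 95% intervals for counting error, the dashed line marks equal change, and the 5 purple genes have opposite signs with both intervals away from 0.

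The ratio had the same sign in both lines for 34 of the 43 genes and opposite signs for 9, and the share over all genes is not given here. TNFRSF10D had a ratio of 0.74 (0.70 to 0.78) in BT-16 and 1.53 (1.48 to 1.57) in CHLA-266, and ABHD4 had 1.44 (1.37 to 1.51) and 2.04 (1.95 to 2.14). For TP73 the ratios were -2.84 (-3.07 to -2.62) and -3.98 (-4.36 to -3.65). These 3 genes changed more in CHLA-266 by more than counting error. DDB2 went the other way, with -1.32 (-1.38 to -1.25) and -1.06 (-1.13 to -0.99), as did AEN, with -1.02 (-1.09 to -0.95) and -0.68 (-0.75 to -0.61). Of the 18 genes called, 7 changed more in CHLA-266 with intervals apart (TP73, ABHD4, POLH, TNFRSF10D, PIDD1, TRIAP1, and SUSD6). Another 3 changed more in BT-16 (FDXR, DDB2, and AEN), and 8 had overlapping intervals. The intervals of SUSD6 lay close together, at 0.33 to 0.47 in BT-16 and 0.48 to 0.64 in CHLA-266. This sorting used TMM and can change with the scaling of the libraries, and its shares over all genes are not given here. GADD45A, with 1.26 (1.19 to 1.33) and 1.32 (1.25 to 1.40), had overlapping intervals in both lines. Whether the lines responded differently could not be tested, because 1 library per line and condition leaves no residual degrees of freedom.

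Between the 2 cell lines, no p53 gene passed the test. That is, 0 of the 43 were called between CHLA-266 and BT-16 in a model with treatment as a term (edgeR's quasi-likelihood test, adjusted p under 0.05), where 2.3% of all genes were, and 9 of 43 were under an unadjusted p of 0.05, against 10.0% of all genes. DESeq2 likewise called 0 of the 43 after adjustment and 6 at an unadjusted p under 0.05. PLK2 came nearest, at a log2 difference of -1.09 ± 0.31 (edgeR adjusted p = 0.057), lower in CHLA-266. Next were ABHD4 at -0.57 ± 0.17, lower in CHLA-266, and TNFRSF10A at 0.47 ± 0.15, higher in CHLA-266. With the size factors of DESeq2 or with upper-quartile normalization, edgeR called these 3 genes, and with library totals it called PLK2 and ABHD4. Over the 41 genes with 10 or more counts in each library, the median absolute log2 difference between the lines was 0.14, and over all such genes it was 0.19. The untreated libraries of the lines were similar as a whole, with a Pearson correlation of 0.992 (across genes, and genes are no independent replicates). How independent the 2 lines are as replicates was not tested.

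Other genes of the pathway were counted from further lists, also chosen with earlier results known. Of 38 further p53 targets, 5 rose and 7 fell (16.1% and 19.1% of all genes), with a median log2 fold change of -0.01. The rising targets of smallest adjusted p value were GDF15, a stress cytokine (log2 fold change 1.87 ± 0.20, edgeR adjusted p = 0.000273), CSF1, the growth factor of macrophages (1.99 ± 0.32, adjusted p = 0.00211), and NADSYN1, which makes NAD (0.85 ± 0.19, adjusted p = 0.0103). The falling ones were STEAP3, an iron reductase (-1.25 ± 0.19, adjusted p = 0.00182), PGF, a placental growth factor (-1.89 ± 0.36, adjusted p = 0.00481), and RPS27L, a ribosomal protein (-0.89 ± 0.17, adjusted p = 0.00512). These targets thus moved both ways, as the 43 genes did.

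Among 25 kinases and cofactors that act on p53, 1 rose and 10 fell, beside 16.1% and 19.1% of all genes. HIPK2, a kinase that phosphorylates p53, rose (log2 fold change 0.65 ± 0.16, edgeR adjusted p = 0.014). PRKDC, the DNA-dependent kinase of end joining, fell from 1600 to 563 CPM in BT-16 and from 1580 to 687 CPM in CHLA-266 (edgeR adjusted p = 0.000938). CHEK2, the checkpoint kinase downstream of ATM, fell by 1.77 on the log2 scale (adjusted p = 0.00139), and TRIM24, a ubiquitin ligase of p53, fell by 1.02 (adjusted p = 0.00181). ATM itself was at 230 and 229 CPM in BT-16 and at 222 and 233 CPM in CHLA-266.

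Of 6 targets for cell death and cell cycle inhibition, CDKN1A rose, BAX fell, and 4 passed in neither direction. Over all genes, 16.1% rose and 19.1% fell. CDKN1A, which encodes the kinase inhibitor p21, went from 119 to 442 CPM in BT-16 and from 105 to 380 CPM in CHLA-266 (log2 fold change 1.88 ± 0.17, edgeR adjusted p = 0.000136). BAX, a pore former of the mitochondrial outer membrane, went from 65.0 to 34.5 CPM and from 59.1 to 28.1 CPM (-0.99 ± 0.18, adjusted p = 0.00394). All 12 genes that p53 represses through p21 and the DREAM complex fell, beside 19.1% of all genes. All of them are genes of cell division, and their median log2 fold change was -4.94. The 3 of smallest adjusted p value were BIRC5 and CDK1 (both 1.92e-06) and CCNB2 (2.33e-06, edgeR), and CDK1 went from 137 to 4.15 CPM in BT-16 and from 154 to 3.16 CPM in CHLA-266. The part of this fall in dividing-cell genes in the changes of TP73, DDB2, and POLH was not tested.

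**Figure D4:**
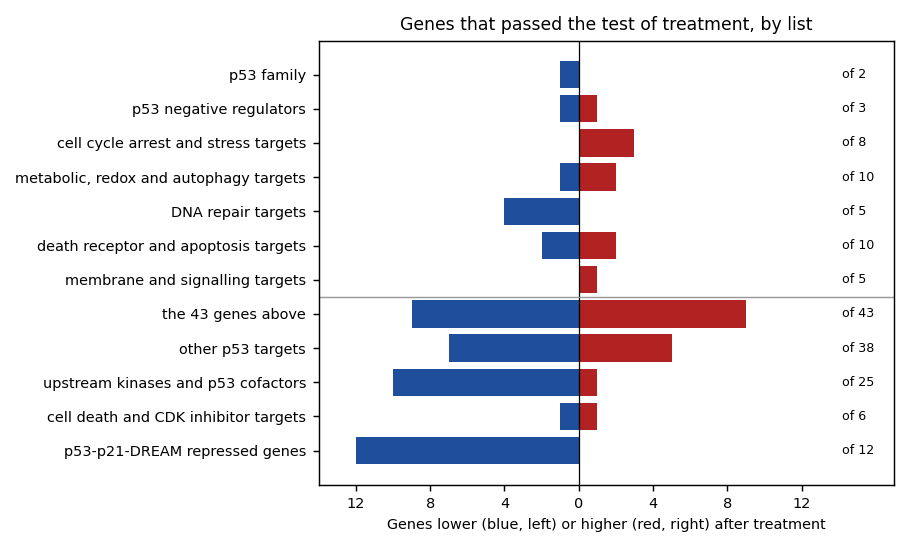
Number of genes that passed the test of treatment as higher (red, to the right) or lower (blue, to the left) in each list, with the genes tested at the right edge. The 43 genes and the 38 other p53 targets moved both ways, while all 12 genes repressed through DREAM were lower.

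Markers of other cells were low in all libraries. Macrophage and T cell markers summed to 6.73 CPM before and 11 CPM after treatment in BT-16 and to 3.35 and 6.7 CPM in CHLA-266. Of the 10 markers, 3 were higher (AIF1, CD163, and CD3D) and none lower, and 1 to 4 had 0 counts in a library. Treated BT-16 and CHLA-266 cells held 27 and 55 counts of AIF1, against 0 and 0 in untreated cells. For CD163 these were 56 and 63 against 8 and 0, and for CD3D 49 and 26 against 2 and 2. CD68 passed in neither direction, with 0 counts in both treated libraries against 3 and 1 in the untreated ones. Fibroblast and endothelial markers summed to 14.8 and 27.1 CPM and to 10.5 and 14.7 CPM, with 4 of 9 higher and 1 lower. Both lists are small beside the 43 p53 genes, which summed to 2990 and 3220 CPM in BT-16 and to 2990 and 3570 CPM in CHLA-266.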

How the data were processed

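RNA of 4 libraries was measured, 1 per cell line and condition, grouped by the sample labels. Libraries were made with a stranded kit from total RNA. According to the submitters' processing notes and the methods, the authors demultiplexed reads with bcl2fastq 2.20, aligned them to hg38 with STAR, counted transcripts as feature counts, added gene symbols, and removed repeated genes and genes of the sex chromosomes. The version of the counting tool, its use of strand, and the annotation version are not given in the sources used here. The authors deposited estimated counts, one unnormalized read count per symbol and library, and 5 fractional values (2 genes) were rounded here. The authors also deposited log2 values after variance stabilization (VST) for 17553 genes, which served as an alternative.

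The 43 genes, their roles, and the other lists were chosen with earlier results of these data known, and every one of the 43 genes is named. From the other lists, up to 3 genes each way, those with the lowest adjusted p values, are named, and ATM, MYC, SMARCB1, MYH7, and CD68 were added after their values were seen. Of 16 tissue-restricted genes, 12 were tested, 2 had a total of 0, and 2 are not reported here. Genes with a total of 0 (383) were left out. The test was the quasi-likelihood test of edgeR 4.0.16 in R 4.3.3 with TMM normalization and treatment as the only term, and an adjusted p value (Benjamini-Hochberg) under 0.05. Standard errors come from that fit. The labels used here do not divide the libraries into batches, so effects of a batch could not be checked. No source says that the libraries come from separate cultures, so p values measure the spread between these libraries. The untreated and treated library of a line are paired by the line itself, and as a check, the deviations of both from the mean of their condition correlated at 0.368 over 12162 genes with a mean of at least 1 CPM (genes are no independent replicates). Alternatives were a block for the line, DESeq2 1.42.0, limma 3.58.1 on VST values, other scalings, filters, halved counts, and each library left out. Low counts were mostly even (20.5% to 34.2% of counts from 1 to 20 were odd), so pairs may have been counted as 2 reads. Ratios within a line used TMM with 0.5 counts added. Scripts were tested on simulated data. Starts (of canonical transcripts), exon lengths, and coordinates come from GENCODE 44 on hg38.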

Additional observations from a re-analysis of the deposited data

Results flagged for a closer look

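For 5 genes the treated library was above the untreated one in 1 cell line and below it in the other, with both exact 95% counting intervals away from 0. GADD45B, a stress gene of the GADD45 family, had a log2 ratio (treated over untreated) of 1.10 in BT-16 and -0.18 in CHLA-266. SESN2, a sestrin, had -0.42 and 0.39, and ACER2, an alkaline ceramidase, had 0.22 and -0.54. CYFIP2, an actin regulator, had -0.18 and 0.28, and RAP2B, a small GTPase, had -0.10 and 0.46. The difference between the cell lines was not tested, since each line had 1 library per condition. With other scalings of the libraries, the smaller ratio of GADD45B, CYFIP2, and RAP2B changed its sign.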

How the results depend on the processing

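The 18 genes called without the block kept their direction in all alternatives that tested them, left-out libraries included, and with a library left out the lone sample of a condition was assumed to vary like the other condition. Counts of higher genes ran from 5 to 8 and of lower genes from 6 to 8 without 1 library, and the fewest higher genes were left without the untreated CHLA-266 library. Upper-quartile normalization gave 16 higher and 4 lower genes, and moved the median log2 fold change of all genes from 0.24 to 0.59 (library totals 0.46). The shares of all genes called in these fits are not given here. The median of the 43 genes moved from 0.05 to 0.12 with DESeq2 with or without the line as a replicate block, with the size factors of DESeq2 in edgeR, and with limma, to 0.40 with upper-quartile normalization, to 0.27 with library totals, to 0.18 with at least 10 counts in every library, and to between 0.00 and 0.12 without 1 library. Between the lines, 1 gene was higher and 2 were lower in CHLA-266 with the size factors of DESeq2 or upper-quartile normalization, and 2 were lower with library totals, against 0 and 0. Genes at least 2-fold lower went from 3 to 1 in BT-16 with upper-quartile normalization, and from 4 to 1 in CHLA-266 with upper-quartile normalization or library totals. Within BT-16, CYFIP2 turned to 0.11 (library totals) and 0.22 (upper-quartile normalization), and RAP2B to 0.19, 0.30, and, with the size factors of DESeq2, 0.00. Within CHLA-266, GADD45B turned to 0.12 with upper-quartile normalization. The cause of these shifts was not tested. The replicate block changed the call of TP63, CDIP1, and GADD45G and of no other of the 43 genes. Among genes called neither with nor without the block, ZMAT3 passed in 3 of 10 alternatives. PLK3, SESN1, TIGAR, SPATA18, and RAP2B each passed in 1 of 10. Of 21 such genes, GADD45B and TNFRSF10C aside, 15 changed their sign under at least 1 alternative or left-out library. Depth limits TP63, GADD45G, and TNFRSF10C, which had at most 104 counts in a library.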
